A study of Rattus norvegicus with 6 samples.

Results

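The 9 genes described here are markers of macrophages and other blood cells, followed in rat bone marrow mesenchymal stem cells by RNA sequencing. They were taken from a table of 30560 genes by their Ensembl identifiers: Ptprc (ENSRNOG00000000655), Cd68 (ENSRNOG00000037563), Aif1 (ENSRNOG00000000853), Lyz2 (ENSRNOG00000005825), Cd74 (ENSRNOG00000018735), Tyrobp (ENSRNOG00000020845), C1qa (ENSRNOG00000012807), C1qb (ENSRNOG00000012804) and C1qc (ENSRNOG00000012749). Cells in the siNC group (genotype label Control, scramble siRNA) were compared with cells in the siS100A16 group, whose S100A16 transcript was targeted by siRNA, with 3 samples in each. Both groups were under osteogenic differentiation, a treatment that steers marrow stromal cells towards bone-forming cells, and the study asked what S100A16, a calcium-binding protein of the S100 family, does in that process. The labels give neither the strain and age of the rats nor whether numbered samples came from separate animals or cultures. The p-values therefore reflect differences among these samples that may be technical only.

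Marrow cultures are started from a tissue full of blood cells, and macrophages in particular can adhere to plastic beside the stromal cells. Per the labels' protocols the cultured cells were characterised by flow cytometry, with CD45 and CD11b as the haematopoietic markers and CD90 and CD44 as the stromal ones. Ptprc encodes CD45, the phosphatase on the surface of nearly all nucleated blood cells. Tyrobp (DAP12) is the adaptor through which several myeloid receptors signal, and Aif1 (IBA1) is an actin-bundling protein of macrophages and microglia. Cd68 is a lysosomal membrane glycoprotein that is abundant in macrophages and is also made at lower levels by other cells, fibroblasts among them. Lyz2 encodes the lysozyme of myeloid cells, and Cd74 the invariant chain that escorts MHC class II molecules. C1qa, C1qb and C1qc encode the 3 chains of C1q, the recognition part of the first complement component, which tissue macrophages make.

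The identifiers were paired with these symbols by a list drawn up for this work, since neither the deposited table nor the RefSeq table of 47357 rat genes pairs them. The pairing was checked against gene length, which the FPKM values imply. FPKM is the number of reads on a gene divided by its length and by the reads counted in the library. For 7 of the 9 identifiers the implied length lay within the span of the named gene in RefSeq. Cd68 had 1242 nt within a span of 1880 nt, which 39.4% of all genes that averaged 1 FPKM or more would also have met. For Ptprc the implied length was 6744 nt, for Aif1 1157 nt, for Lyz2 1530 nt, for Cd74 1839 nt, for Tyrobp 529 nt and for C1qb 1268 nt. The spans of these 6 genes are wide, so that between 81.4% (Tyrobp) and 100% (Ptprc) of those genes would have passed, and the check is weak for them. The smallest whole length that fitted the values was taken, which favours a pass. Tyrobp had reads in 1 sample, so whole multiples of its 529 nt would fit as well. C1qa and C1qc had no read, therefore no implied length, and were dropped from the comparisons. All statements about named genes rest on this pairing.

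Cd68 and Lyz2 were the only members that averaged 1 FPKM or more. The 250 bases before the RefSeq transcription start of each are shown for that reason, 5′ to 3′ on the strand of the gene, from the GRCr8 build. Capitals mark GAGGAA or its reverse complement TTCCTC, a core recognised by PU.1, the transcription factor of myeloid cells, and by other factors of the ETS family.
Cd68, chr10:54882442-54882691, minus strand: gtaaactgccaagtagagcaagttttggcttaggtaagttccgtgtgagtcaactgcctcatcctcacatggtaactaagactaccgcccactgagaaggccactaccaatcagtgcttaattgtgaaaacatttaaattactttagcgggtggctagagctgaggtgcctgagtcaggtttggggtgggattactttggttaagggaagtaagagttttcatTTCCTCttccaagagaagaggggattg
Lyz2, chr7:54798012-54798261, minus strand: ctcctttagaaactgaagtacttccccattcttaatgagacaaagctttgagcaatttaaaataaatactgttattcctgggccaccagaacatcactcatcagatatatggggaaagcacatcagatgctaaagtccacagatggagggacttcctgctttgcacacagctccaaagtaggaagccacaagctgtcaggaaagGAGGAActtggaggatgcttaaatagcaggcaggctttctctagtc
The motif was searched for on both strands in the same window of 33469 RefSeq rat promoters, and 23.3% of them held it. RefSeq promoters were found for 6 of the 9 members, Ptprc, Cd68, Lyz2, Cd74, C1qa and C1qb, of which all but C1qa held the motif. These matches describe letters in a window, and no binding was measured. The motif was chosen with the sequences known.

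Taken as a set, the blood cell markers were at or near the detection limit in both groups. Exceptions were Cd68 and, in siNC replicates 2 and 3, Lyz2. Aif1 had 4 to 9 reads in 4 samples. Ptprc reached 9 reads in siS100A16 replicate 3 and Cd74 8 reads in siS100A16 replicate 1. Reads were found in every sample for 1 member, in some samples for 6, and in none for 2. Library totals ranged from 5387539 to 8059327 reads on genes, and the siS100A16 libraries were the smaller ones. A value of 0 is compatible with up to 3 reads in a library, a limit that covers counting error only. In bulk RNA, fewer cells of a type and less RNA per cell cannot be told apart.

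By mean FPKM over all 6 samples the order was Cd68 (13.0), Lyz2 (1.46), Aif1 (0.546), Cd74 (0.117), Tyrobp (0.0908), C1qb (0.0781) and Ptprc (0.0552), followed by C1qa and C1qc at 0. Cd68 exceeded Lyz2 in 6 of 6 samples. Below Cd68 the order was not firm. Lyz2 exceeded Aif1 in 3 samples and was below it in 2, Tyrobp exceeded C1qb in 1 and was below it in 2, and C1qb exceeded Ptprc in 2 and was below it in 3. Aif1 exceeded Cd74 in 4 samples, and Cd74 exceeded Tyrobp in 2, with no sample the other way.

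**Figure D1:**
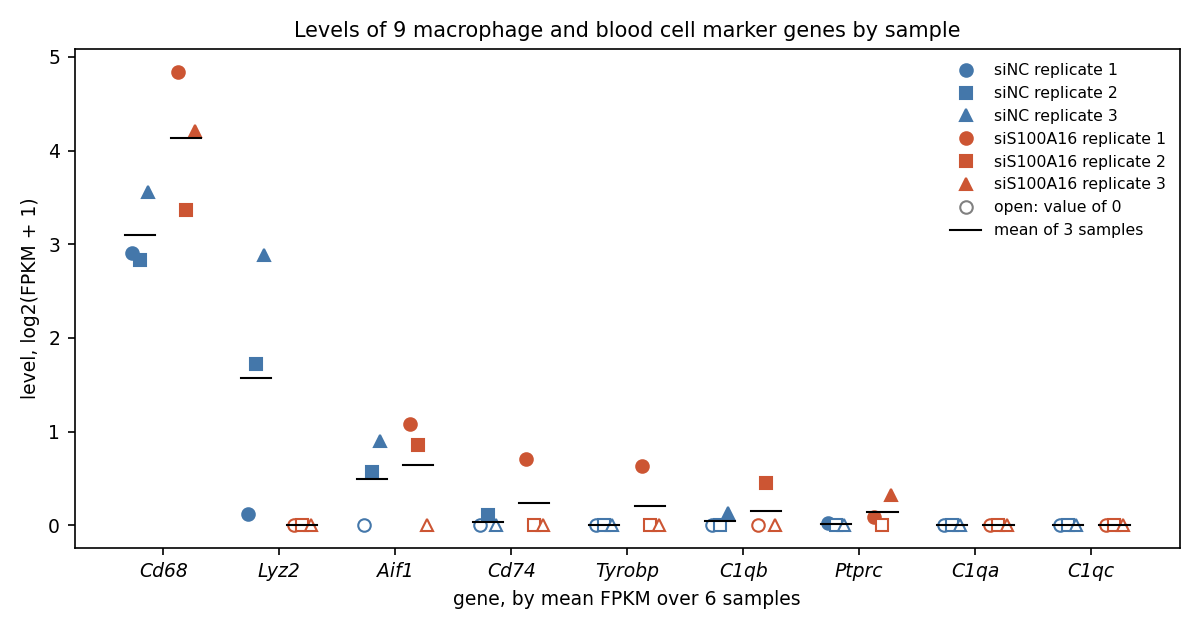
Levels of the 9 genes on the log2(FPKM + 1) scale in each of the 6 samples, with siNC in blue, siS100A16 in red, open symbols at 0 and a black line at the mean of 3 samples. Cd68 is above 0 in all samples with overlapping groups, Lyz2 is above 0 in the siNC samples alone, and the other genes lie near 0.

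Among the 22692 genes with a value above 0 in some sample, Cd68 ranked above 79.4% by mean FPKM over all 6 samples and Lyz2 above 49.8%. The rank of Lyz2 averages unlike samples: among the genes above 0 in each library it was above 6.73%, 44.9% and 62.2% in siNC replicates 1 to 3, and it was at 0 in siS100A16. Aif1 ranked above 39.0%, and the other members with reads ranked between 12.3% (Ptprc) and 20.5% (Cd74).

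**Figure D2:**
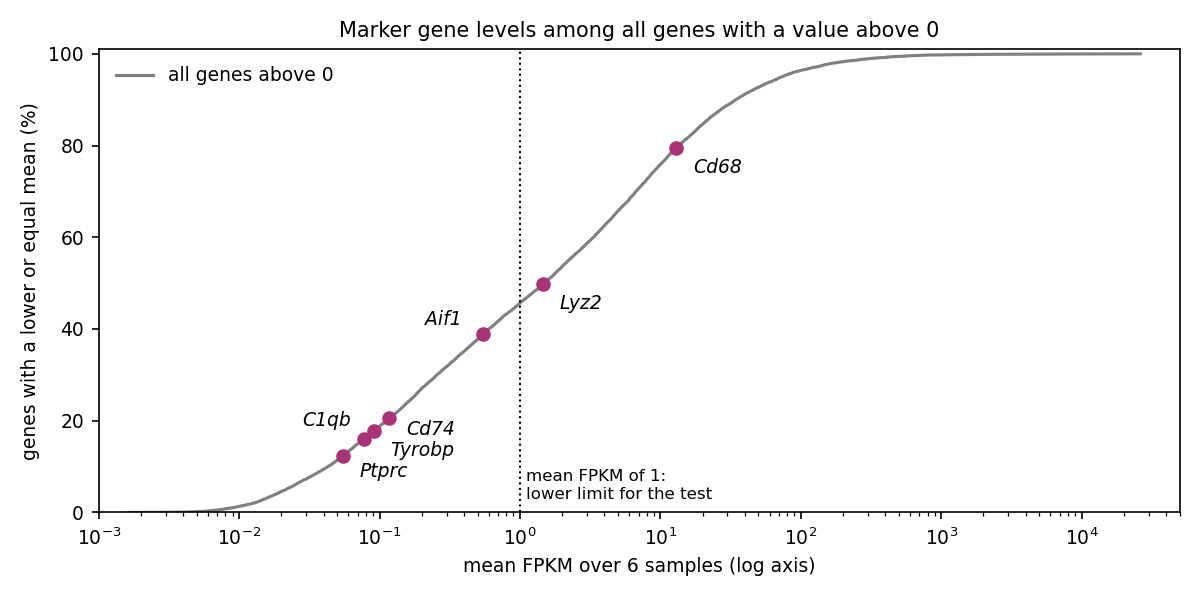
Share of genes with a lower or equal mean FPKM (vertical axis, percent) against the mean FPKM over 6 samples (horizontal log axis) for all genes above 0, with the 7 marker genes that had reads as points. Cd68 lies above 79.4% of genes, Lyz2 above 49.8%, and 5 members lie left of the dotted line at a mean FPKM of 1, the lower limit for the test.

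Levels were compared between groups with limma on log2(FPKM + 1), fitted over the 12336 genes that averaged 1 FPKM or more, with p-values adjusted by the Benjamini-Hochberg method over all of them. Cd68 and Lyz2 were the 2 members tested, and 0 of them were called at an adjusted p under 0.05, against 20.7% of all tested genes, with 16.4% higher and 4.27% lower in siS100A16. At an unadjusted p under 0.05 both would have passed, as 4351 of the 12336 genes did. The fold changes of all genes had a median of 0.17 on the log2 scale. Median-of-ratios scaling moved that median to -0.02.

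Cd68, the lysosomal glycoprotein, was present in every sample. Its level was 6.50, 6.09 and 10.8 FPKM in siNC replicates 1 to 3, from 61, 54 and 108 reads. In siS100A16 replicates 1 to 3 it was 27.6, 9.33 and 17.5 FPKM, from 238, 74 and 117 reads. The highest siNC sample thus lay above the lowest siS100A16 sample, and the groups overlapped. The group means were 7.79 ± 2.60 FPKM in siNC and 18.1 ± 9.16 FPKM in siS100A16 (SD, n = 3 each). The log2 fold change was 1.04 (SE 0.38, 95% interval 0.17 to 1.91), a 2.06-fold higher fitted level in siS100A16 that did not pass the test (limma adjusted p = 0.0885).

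The Cd68 difference depended on single samples and on scaling. Without siS100A16 replicate 2, its lowest sample, the log2 fold change was 1.43 and the gene was called (limma adjusted p = 0.0231). Fitted over all genes above 0, the same samples gave no call (limma adjusted p = 0.0734). Without siS100A16 replicate 1, its highest sample, the log2 fold change of Cd68 was 0.69 (limma adjusted p = 0.217). With median-of-ratios scaling it was 0.83, with a 95% interval from -0.04 to 1.70 (limma adjusted p = 0.17). On the log2 scale the SD of Cd68 was 0.40 in siNC and 0.74 in siS100A16, where the medians over all tested genes were 0.17 and 0.37.

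Lyz2, the myeloid lysozyme, had reads in the siNC samples and in none of the siS100A16 samples. Its level was 0.0864, 2.29 and 6.41 FPKM in siNC replicates 1 to 3, from 1, 25 and 79 reads, and it was listed at 0 in siS100A16 replicates 1, 2 and 3. The control samples differed widely, by 74.1-fold between the lowest and the highest, and the lowest rested on 1 read, so the groups were separated by that single read. Over the group, 105 reads were found in siNC, and 75.2% of them came from replicate 3. Groups that do not overlap, with siS100A16 the lower, were found for 12.2% of all tested genes.

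The mean level of Lyz2 in siNC was 2.93 ± 3.21 FPKM (SD, n = 3), and the SD exceeded the mean. The log2 fold change was -1.58 (SE 0.66, 95% interval -3.09 to -0.06) and did not pass the test (limma adjusted p = 0.129). Against an assumed 3 reads over the siS100A16 group, the pooled reads per library total were 28.8-fold higher in siNC, and 11.0-fold higher without siNC replicate 3. These ratios are no lower bounds: they take the siNC reads as exact and leave out the spread between samples. For 0 reads over the siS100A16 group the exact Poisson 95% interval reaches 3.69 reads. Without siNC replicate 1, which held the single read, the log2 fold change was -2.30 and the gene was called (limma adjusted p = 0.0387). Without siNC replicate 3 it was -0.92 (limma adjusted p = 0.404). A pseudocount of 0.1 gave -3.83 (limma adjusted p = 0.148) and limma voom on the worked-out reads -4.59 (limma adjusted p = 0.133). The call by limma voom depended on the limit on low values: without that limit, a fit added after the data were seen, the value was again -4.59 and the gene was called with all 6 samples (limma adjusted p = 0.0212). Lyz2 passed the limit on low values through the siNC samples alone.

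The SD of Lyz2 between the siNC samples was 1.39 on the log2 scale. That was larger than for 99.6% of the tested genes, and 48 genes had a larger one. Of 3109 genes with a sum of 52.5 to 210 siNC reads, a range around that of Lyz2 set with its value known, 4 (0.129%) were at 0 in all siS100A16 samples, Lyz2 included. In the same genes 381 (12.3%) were at 0 in at least 1 siS100A16 sample, and 0 of the 3109 in any siNC sample. The range was set on siNC reads alone, which nearly excludes a 0 in siNC beforehand. The siS100A16 libraries were also smaller, so these shares do not compare the groups. In RefSeq, Lyz2 lies next to a second lysozyme gene, Lyc2, for which Lyz2 is also given as a synonym. Reads shared by the pair may have been divided between them or dropped in counting, and the value for Lyz2 is uncertain to that extent.

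**Figure D3:**
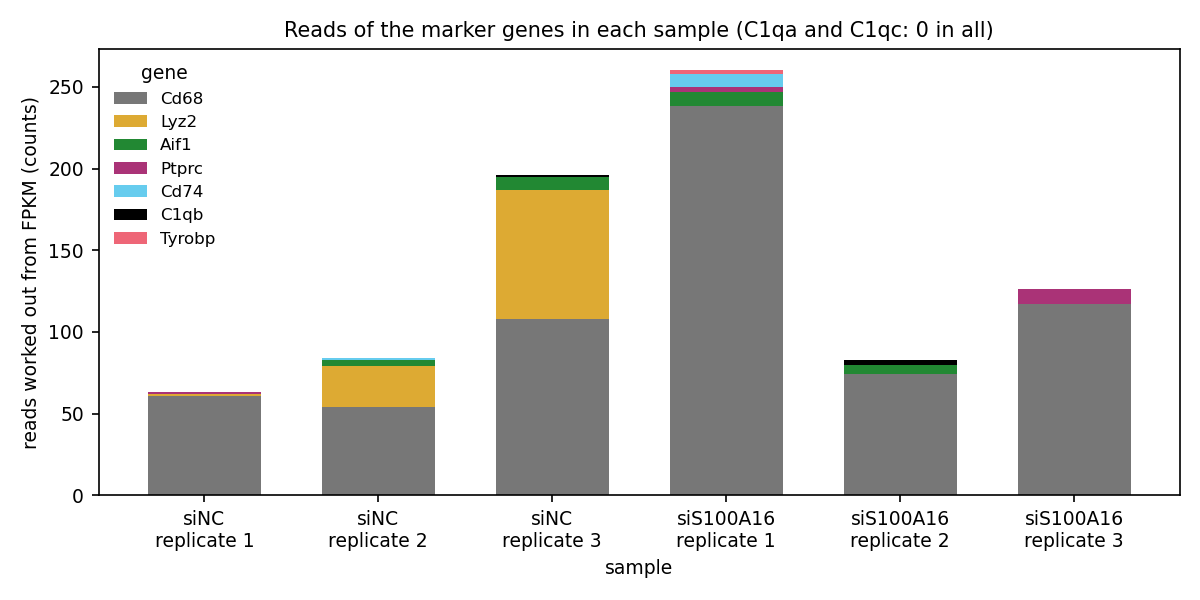
Reads worked out from the FPKM values (vertical axis, counts) for the 7 marker genes with reads, stacked in each of the 6 samples. Cd68 makes up between 55.1% (siNC replicate 3) and 96.8% (siNC replicate 1) of the reads, and Lyz2 appears in the siNC samples alone.

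The pan-leukocyte gene Ptprc, which encodes CD45, had 1, 0 and 0 reads in siNC replicates 1 to 3 and 3, 0 and 9 reads in siS100A16 replicates 1 to 3. Its highest level was 0.248 FPKM, in siS100A16 replicate 3. Of the 12 siS100A16 reads, 9 were in that sample, and both groups held a sample at 0. Summed over a group, the single siNC read has an exact Poisson 95% interval of 0.0253 to 5.57 reads and the 12 siS100A16 reads one of 6.20 to 21.0 reads, and these intervals cover counting error only. In the fit over all 22692 genes above 0, in which 7.69% were called, Ptprc had a log2 fold change of 0.13 (SE 0.10) and an adjusted p of 0.536 by limma. That size depended on the scale and on 1 sample, at 0.75 with a pseudocount of 0.1, 2.15 with limma voom and 0.035 without siS100A16 replicate 3, and it was not called in any of these.

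The myeloid genes Aif1 and Tyrobp were low. Aif1 had 0, 4 and 8 reads in siNC and 9, 6 and 0 reads in siS100A16, which is 0 to 0.858 FPKM and 0 to 1.12 FPKM. Its groups overlapped almost completely, with a sample at 0 in each, and the log2 fold change in the fit without a limit on low values was 0.16 (95% interval -0.70 to 1.02, limma adjusted p = 0.806). The pseudocount narrows that interval, which was -2.63 to 3.29 with a pseudocount of 0.1 and -2.46 to 3.53 with limma voom. Tyrobp had 2 reads in siS100A16 replicate 1, or 0.545 FPKM, and 0 in the other samples, where 3 reads would be worth between 0.704 and 1.05 FPKM.

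Cd74, of the MHC class II pathway, had 1 read in siNC replicate 2 and 8 reads in siS100A16 replicate 1, and 0 in the other samples. Its highest level was 0.627 FPKM, and the fit without a limit on low values gave a log2 fold change of 0.20 (SE 0.20) with an adjusted p of 0.589 by limma. With a pseudocount of 0.1 it was 0.68 and with limma voom 1.00, and it was not called in either. Thus a single library carried the siS100A16 value of both Tyrobp and Cd74.

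Of the complement genes, C1qb had 1 read in siNC replicate 3 and 3 reads in siS100A16 replicate 2, at 0.0979 and 0.371 FPKM. The identifiers given for C1qa and C1qc were listed at 0 in all 6 samples. In RefSeq the 3 C1q genes are neighbours, in the order C1qb, C1qc, C1qa. C1q is assembled from all 3 chains, and no sample had reads for more than 1 of these identifiers. Those of C1qa and C1qc could not be checked, and C1qb had 4 reads in all. The values therefore do not tell whether the 3 chains were made together.

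The number of markers above 0 differed between samples. Between 3 and 4 members were above 0 in the siNC samples, and 5, 3 and 2 in siS100A16 replicates 1 to 3. Without Cd68 and Lyz2 the other 7 members summed to 1, 5 and 9 reads in siNC and to 22, 9 and 9 reads in siS100A16. In FPKM this sum was 0.0196, 0.561 and 0.956 in siNC and 2.36, 1.18 and 0.248 in siS100A16, so the groups overlapped on that scale. The sample with the most Cd68, siS100A16 replicate 1, was also the one with the highest sum of these 7 and held the reads of Tyrobp and most of those of Cd74. Lyz2 was at 0 in that sample. In FPKM the match did not hold throughout. In siS100A16 replicate 3 Cd68 was 17.5 FPKM and the sum of the 7 was 0.248. That sum was below those of siNC replicates 2 and 3, where Cd68 was 6.09 and 10.8 FPKM. This break depended on summing FPKM. All 9 reads of the low sum were of Ptprc, the longest of these genes by implied length (6744 nt). In reads the sum was 9 of 5387539, against 5 of 7135826 and 9 of 8059327 in siNC replicates 2 and 3. The part of blood cells in the Cd68 level was not tested.

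**Figure D4:**
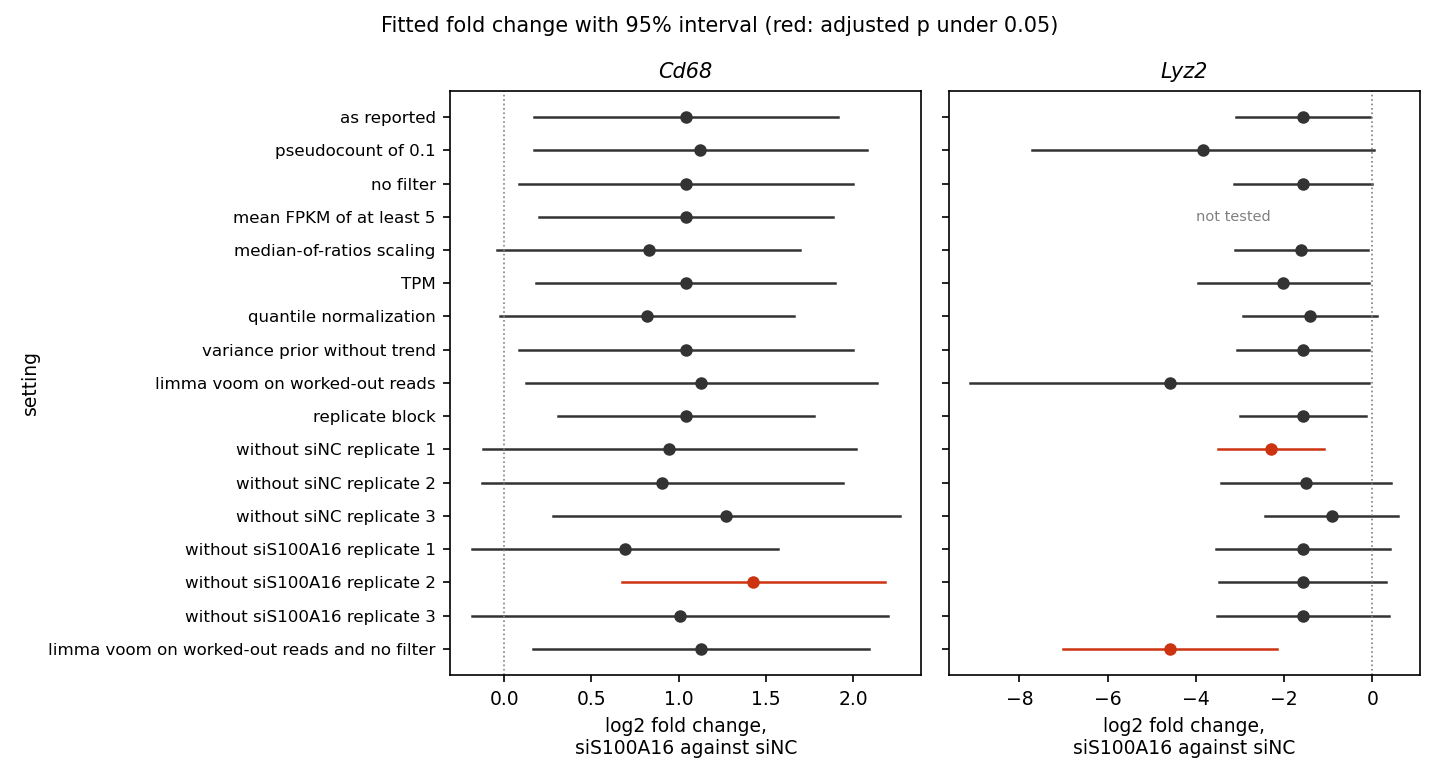
Fitted log2 fold change of Cd68 (left) and Lyz2 (right), siS100A16 against siNC, with its 95% interval for each setting of the fit, in red where the adjusted p was under 0.05, with the limit on low values kept unless the setting names another. Cd68 is red without siS100A16 replicate 2, Lyz2 is red without siNC replicate 1 and with limma voom and no filter, and all fitted values shown for a gene have the same sign. For Lyz2 the sign could hardly differ, as only siNC samples had reads.

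The silenced gene, the stromal markers and the other blood cell lists were not analysed here, because the table pairs identifiers with no names. The labelled cell type was therefore compared with the 9 markers alone. In these libraries Cd68 was not accompanied by a comparable level of Ptprc, Tyrobp, Aif1, Cd74 or C1qb. Lyz2 was nearer to it in siNC replicates 2 and 3, at 2.29 and 6.41 FPKM beside Cd68 at 6.09 and 10.8. In siNC replicate 1 Lyz2 was 0.0864 FPKM beside Cd68 at 6.50, and in siS100A16 it was at 0. These are levels of different genes with no macrophage sample beside them, and the source of Cd68 was not tested.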

How the data were processed

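RNA was sequenced from 6 samples, 3 in each of 2 groups. The authors deposited 1 table of FPKM values per gene. The submitters' processing notes name HISAT2 2.1.0 and DESeq2 1.14.1 with no role, and a mouse build, although all 30560 identifiers carry the rat Ensembl prefix. The sources used here name no read counter, annotation or filter. Control columns were taken as siNC and the others as siS100A16, by number.

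Whole reads were worked out from the FPKM values: a single whole total per library and a whole length per gene (within 0.002 nt) gave whole reads for all 22692 genes above 0. Reads and length of a gene may share a hidden factor; the smallest whole numbers were used. They summed to between 99.6% and 99.7% of the totals.

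Groups were compared with limma 3.58.1 (R 4.3.3), applied to log2(FPKM + 1), two-sided, with a variance prior following the mean, on genes that averaged 1 FPKM or more, as deposited. The log2 scale with a pseudocount of 1 understates changes of low genes. Members below that limit take their values from a fit without it. The working out of reads and the fit with the limit were tested on simulated data. Reads were scored there only for genes that averaged 1 FPKM or more. The reads of members below that limit and the fit without it were not covered. Alternatives were a pseudocount of 0.1, other limits, 3 rescalings, a prior without trend, limma voom on the worked-out reads, the replicate number as a block, and each sample left out. Limma voom without a filter was added after the data were seen. Members, lists and tests were chosen with earlier results of these data known. All 9 members are named by rule. The rule for genes of like pattern and the lists of other markers needed gene names and were not run.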

Additional observations from a re-analysis of the deposited data

How the results depend on the processing

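With all 6 samples, Cd68 was not called under any alternative run, and Lyz2 was called in 1, limma voom without a filter (-4.59, limma adjusted p = 0.0212), which was added after the data were seen. Neither changed direction. Over the alternatives with all 6 samples, filtered or not, the log2 fold change of Cd68 ran from 0.82 to 1.13 (limma adjusted p 0.0575 to 0.324). That of Lyz2 ran from -4.59 with limma voom to -1.42 with quantile normalization (limma adjusted p 0.0212 to 0.281). With a minimum mean FPKM of 5 Lyz2 was not tested. With the filter kept and 1 sample left out, Cd68 ran from 0.69 to 1.43 (limma adjusted p 0.0231 to 0.262). Lyz2 then ran from -2.30 to -0.92 (limma adjusted p 0.0387 to 0.404). Without a filter, leaving out siNC replicate 1 gave Lyz2 the same -2.30 but no call (limma adjusted p = 0.0826). Leaving out siS100A16 replicate 2 without a filter gave Cd68 the same 1.43 but no call (limma adjusted p = 0.0734). A replicate block, fitted by number, left the estimates as they were: the log2 fold change was 1.04 for Cd68 (limma adjusted p = 0.0587) and -1.58 for Lyz2 (limma adjusted p = 0.118), and 2246 genes were called. Deviations of same-numbered samples correlated at -0.03, 0.05 and 0.04, so the numbers were not taken as pairs.

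Low members turned sign when single samples were left out: Aif1 to -0.084 without siNC replicate 1 and to -0.059 without siS100A16 replicate 1, so that its range was -0.084 to 0.48, Cd74 to -0.035 without siS100A16 replicate 1 (range -0.035 to 0.32) and C1qb to -0.045 without siS100A16 replicate 2 (range -0.045 to 0.18). Tyrobp was at 0 in all samples left without siS100A16 replicate 1, where the fitted change was 0. Of the other alternatives for Ptprc, Aif1, Cd74, Tyrobp and C1qb, limma voom gave the largest log2 fold changes (2.15, 0.54, 1.00, 1.01 and 0.71), and 0 of these genes were called in any alternative.

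Of all genes, 2556 were called, 2029 higher and 527 lower in siS100A16. Quantile normalization gave 1563, with 705 higher and 858 lower, and median-of-ratios scaling gave 928 higher and 821 lower. The cause was not tested. Leave-one-out fits called 552 to 3182 genes, the fewest without siNC replicate 2 and the most without siS100A16 replicate 2. Higher genes then ranged from 459 to 2198 and lower ones from 93 to 984. Depth limits the other 7 members, with at most 9 reads of a gene in a sample.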
